A study of Mus musculus with 2 samples.

Results

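The mouse genes that copy DNA and mend it were followed, Brca2 among them, after the cytokine leukemia inhibitory factor (LIF) was targeted by siRNA in pre-implantation embryos. The genes were chosen by name, by taking every gene spot whose name begins with a term of this field, among them terms for a DNA polymerase, a ligase, a topoisomerase, the origin recognition complex, a RAD protein, breast cancer 1 or 2, mismatch, excision or X-ray repair, or a DNA methyltransferase, with radixin left out. The rule took in 48 of the 8735 gene spots of the array, each with a name of its own. Other roles came in with the letters "rad", since radical fringe (Rfng), which adds sugars to Notch, and the GTP-binding protein Rrad do not copy or repair DNA. Without these 2 genes there were 46.

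RNA was pooled from morulae of the strain B6CBF1, labeled as whole embryos of 4 days, which had been injected as zygotes with LIF-siRNA or with scrambled siRNA as the control. The labels give 1.0 fmol of siRNA and the study's methods another dose. On each of 2 cDNA arrays, RNA of LIF-siRNA embryos carried the dye Cy5 and RNA of scrambled-siRNA embryos the dye Cy3, in the same order. The description field of the labels speaks of untreated stem cells and 4 replicates, which goes against the titles, and the groups were taken from the titles, the source names and the dyes. Whether each array had its own pool of embryos is not given in the sources used here, so that any p-value measures the spread between these 2 arrays, which may be technical. The dyes were not swapped, and an effect of the dye on a gene cannot be told apart from that of the siRNA. No spot is named for LIF, so its knockdown could not be checked.

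A cell copies its genome in each cycle. Origin recognition complexes mark where copying starts, a helicase opens the duplex, and polymerases alpha, delta and epsilon copy the strands with the help of primase, a flap endonuclease and a ligase. Damage is met by separate routes. Excision repair removes altered bases, mismatch repair corrects copying errors, end joining seals broken ends, and homologous recombination rebuilds a break from an intact copy, with the help of Brca1 and Brca2. The first divisions of the embryo draw on transcripts and proteins stored in the egg.

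The ratio of a gene is given as the log2 ratio of LIF-siRNA (Cy5) over scrambled siRNA (Cy3), so that 1 is a ratio of 2 and -1 a ratio of 0.5, and values below 0 are lower after LIF-siRNA. Of the 48 genes, 47 were well above background in all 4 channels, and 0 were saturated. The exception was Mgmt, which removes methyl groups from guanine and was not well above background in any channel, so it has no ratio here. The 47 genes lay among 8079 compared gene spots. Their median signal over local background was from 19.7 to 23.3 over the 4 channels, against 4.83 to 6.60 for all gene spots, and 38 of them were past a processed signal of 1000, which 40.5% of the gene spots passed. With 2 arrays, their number sets how precise a ratio can be. In pooled embryos, fewer cells of a type and less RNA per cell cannot be told apart.

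The replication and repair genes lay more often below 0 than above it. After LIF-siRNA the log2 ratio was below 0 on both arrays for 28 of 47 genes, where 36.8% of all compared spots were, and above 0 on both for 12, where 36.7% of all spots were. The other 7 had opposite signs. On array 1, 30 genes were lower and 17 higher, where 49.7% of all compared spots were lower. On array 2, 33 were lower and 14 higher, where 50.3% of all spots were lower. The median log2 ratio of the genes was -0.22 on array 1 and -0.37 on array 2, and -0.30 for the mean of the arrays (SD of the array medians 0.10, n = 2), beside -0.004 for all compared spots. Without Rfng and Rrad it was again -0.30, with 27 genes lower and 12 higher on both arrays. These are counts and a median of a list chosen by name, and the list was not tested as a whole. The genes were brighter than most spots, and 85.1% of them had the same sign on both arrays, against 73.5% of all compared spots. The direction counts, the median and the limma counts below were not set among bright spots alone. Pearson r between the arrays was 0.665 across the 47 genes and Spearman rho 0.673, which describes genes that share both hybridizations.

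**Figure D1:**
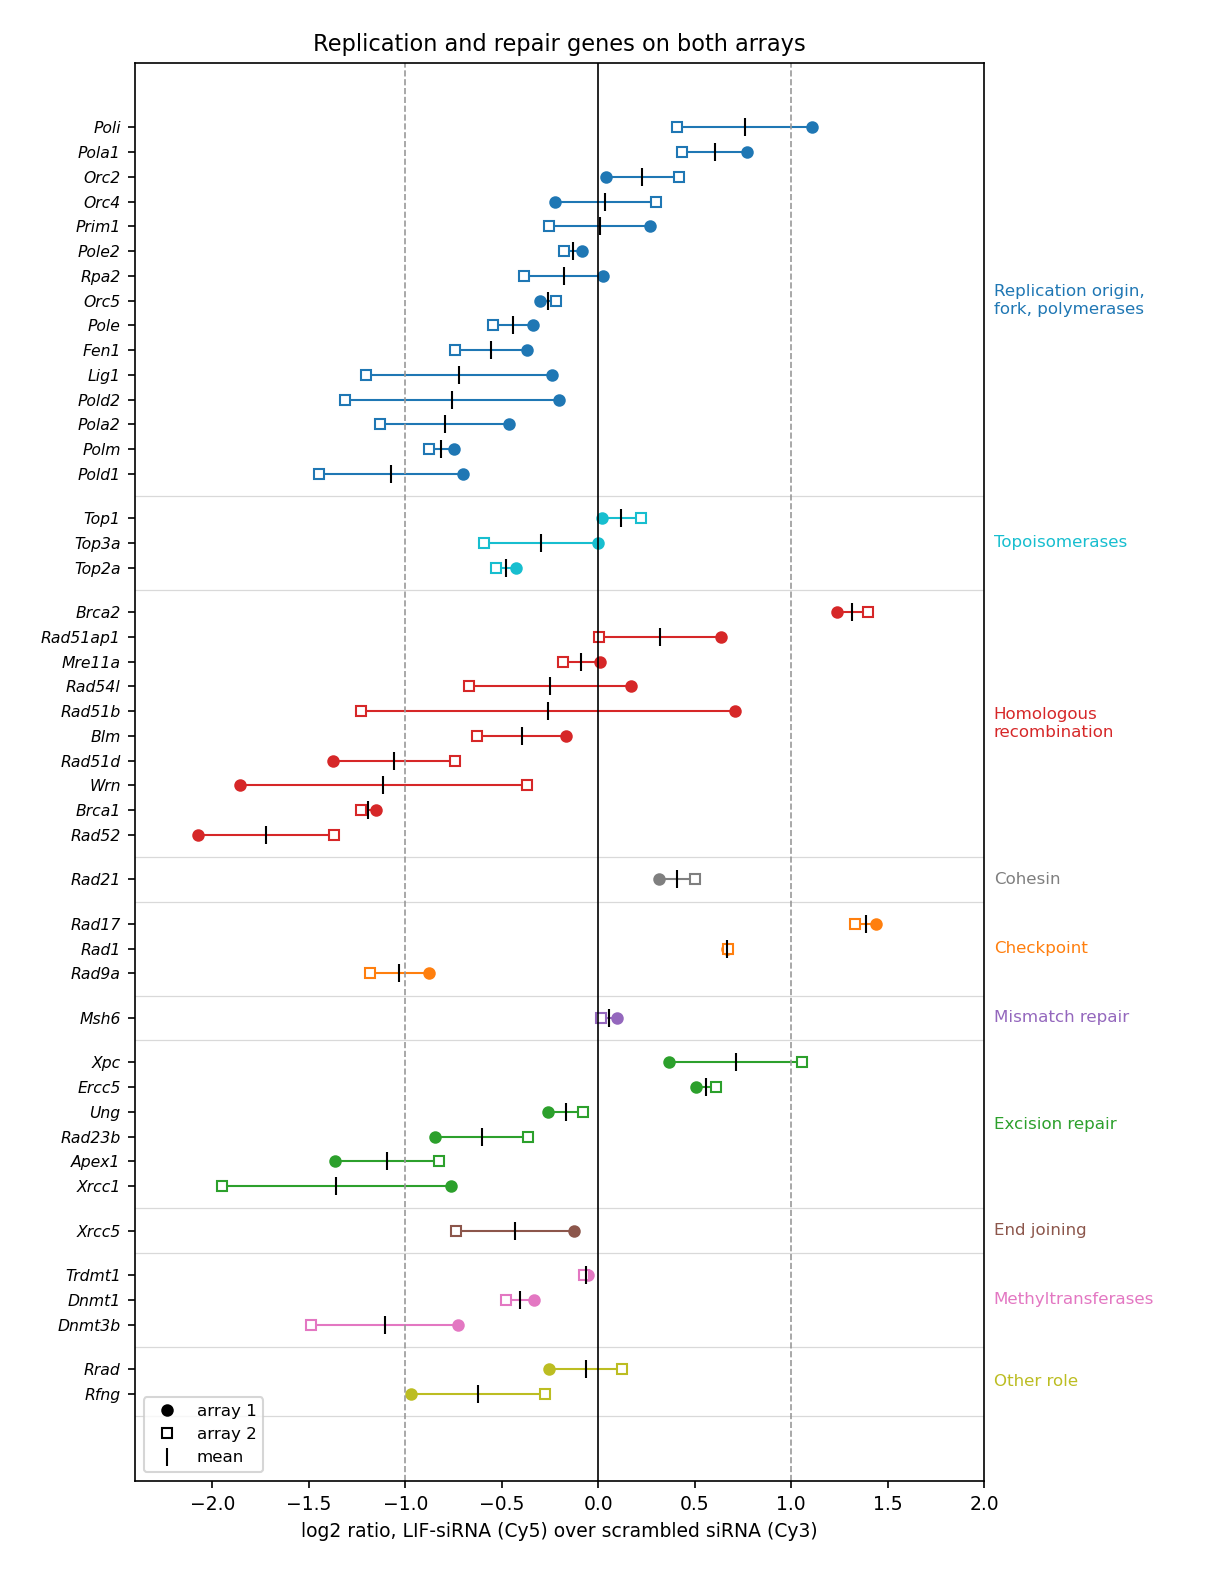
Log2 ratio of LIF-siRNA over scrambled siRNA (x axis) for 45 of the 47 compared genes (rows), grouped by role. Filled circles are array 1, open squares array 2 and vertical ticks their mean, and dashed lines mark a 2-fold ratio. Brca2 and Rad17 lie beyond 1 on both arrays, and Brca1 and Rad52 beyond -1 on both.

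By the study's criteria, a mean ratio over 2 or under 0.5 with a mean processed signal over 1000 in either channel, 2 of the 48 genes were higher after LIF-siRNA, beside 2.16% of all gene spots. They were Brca2 and Rad17. There were 6 genes past the criteria on the lower side, beside 2.19% of all gene spots. These were Xrcc1, Brca1, Dnmt3b, Apex1, Pold1 and Rad9a. Since dim spots cannot pass the signal criterion, the same counts were also set among spots past the signal threshold, 2 and 6 of 38 genes against 5.33% and 5.42% of 3527 spots. Another 3 genes, Rad52, Wrn and Rad51d, had a mean ratio under 0.5 but a signal under the threshold, so that without it the counts were 9 lower and 2 higher, beside 5.27% and 6.96% of all compared spots. With both arrays required to pass a ratio of 0.5, 2 genes of the 9 were left, Brca1 and Rad52, beside 3.03% of all compared spots, and only Brca1 of these passed the signal criterion on each array, beside 1.45% of all gene spots. On array 1 alone 2 genes were past the criteria on the lower side, beside 2.47% of all gene spots, and on array 2 alone 8, beside 3.05%. On the higher side each array alone gave 3 genes, beside 2.02% of all gene spots on array 1 and 2.98% on array 2, with Poli joining Brca2 and Rad17 on array 1 and Xpc on array 2. Xrcc1, Dnmt3b, Pold1 and Rad9a lay within the 2-fold limit on array 1 and Apex1 on array 2, while Pola2, Pold2 and Lig1 were past the criteria on array 2 alone. Brca2 and Rad17 passed a ratio of 2 on both arrays, as 2.78% of all compared spots did, and with the signal criterion on each array the same 2 genes passed, beside 0.941% of all gene spots.

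These criteria hold no test. When limma was fitted over all 8079 spots, 0 of the 47 genes passed a Benjamini-Hochberg adjusted p of 0.05 for a log2 ratio other than 0, and neither did any other spot (0% of all spots). The lowest adjusted p among the genes was 0.0607. At an unadjusted p under 0.05 there were 19 genes, beside 30.7% of all compared spots. Of these 7 were higher and 12 lower, where 15.9% of all spots were higher and 14.8% lower. The adjusted count moved with the processing. Under normexp background correction with loess, Brca2 and Rad17 passed, 2 genes beside 1.96% of all spots. With both channels well above background Rad52 joined them, 3 genes beside 3.09%, and with median centring Brca1 as well, 4 genes beside 4.27%. Without lowess 10 genes passed, beside 16.5% of all spots, and with an intensity trend in the model of the variance 13 genes, beside 14%. With each spot tested by its own variance alone, 4 genes had an unadjusted p under 0.05, beside 10.7% of all spots, and 0 passed after adjustment.

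**Figure D2:**
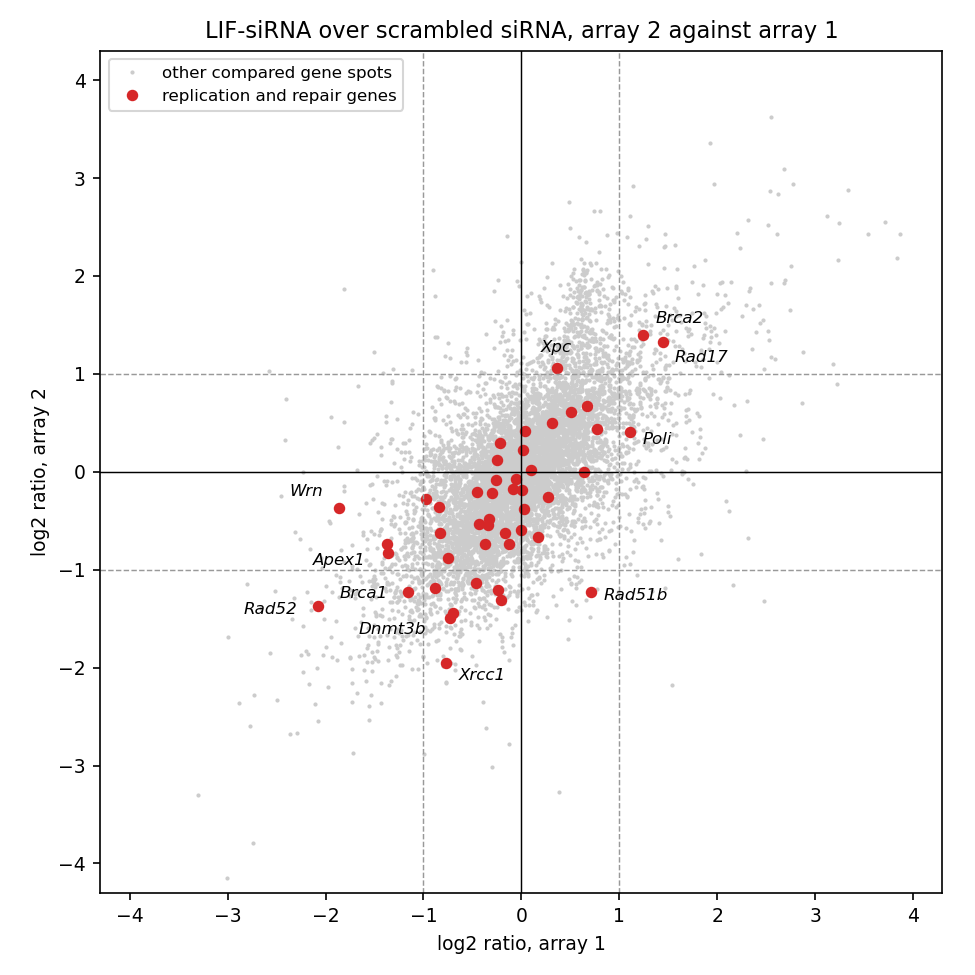
Log2 ratio on array 2 (y axis) against array 1 (x axis) for 8079 compared gene spots (gray) and the 47 replication and repair genes (red), with dashed lines at a 2-fold ratio. More red points lie in the lower left (28 genes) than in the upper right (12 genes), and Rad51b lies on opposite sides of 0.

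Brca2 and Brca1 belong to the same repair route and had opposite log2 ratios. Brca2 prepares single-stranded DNA at a break for pairing with the intact copy. After LIF-siRNA its processed Cy5 signal was 6413 on array 1 and 4955 on array 2, while the Cy3 signal after scrambled siRNA reached 2718 and 1881. Both Cy5 signals lay above both Cy3 signals. The log2 ratio of Brca2 was 1.24 on array 1 and 1.40 on array 2, with a mean of 1.32 ± 0.11 (SD, n = 2 arrays), a limma standard error of 0.21 and an adjusted p of 0.0607. This is a ratio of 2.49, higher than that of 97.3% of the compared spots.

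Brca1 acts before Brca2 in recombination, where it favors the trimming of broken ends, and also takes part in checkpoint signaling. Its Cy5 signal was 1300 on array 1 and 1178 on array 2 and its Cy3 signal 2894 and 2761. The channels of Brca1 and of Brca2 did not overlap, which is likely for any gene picked for a 2-fold mean ratio. The log2 ratio of Brca1 was -1.15 and -1.23, with a mean of -1.19 ± 0.05 (SD, n = 2 arrays), a limma standard error of 0.21 and an adjusted p of 0.0635. Within an array, the log2 ratio of Brca2 exceeded that of Brca1 by 2.39 on array 1 and by 2.63 on array 2. This pair was picked after its values had been seen, and the difference was not tested.

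The promoters of Brca2 and Brca1 are shown because this pair had opposite ratios, with an SD between the arrays of 0.11 for Brca2 and 0.05 for Brca1. They are the 250 bases before the annotated start, read 5′ to 3′ from RefSeq promoters of the build GRCm38.p6. Brca2 is at chr5:150522371-150522620 on the + strand (54.4% G and C), and Brca1 at chr11:101551956-101552205 on the - strand (51.2%). Capitals mark a cAMP response element in Brca2, 20 bases before the start, and a CCAAT box in Brca1, 86 bases before it.
Brca2: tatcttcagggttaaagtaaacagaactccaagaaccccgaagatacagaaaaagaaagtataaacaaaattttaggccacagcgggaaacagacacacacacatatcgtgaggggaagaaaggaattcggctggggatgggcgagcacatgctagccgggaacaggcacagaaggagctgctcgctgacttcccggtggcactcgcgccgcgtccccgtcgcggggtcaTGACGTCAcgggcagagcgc
Brca1: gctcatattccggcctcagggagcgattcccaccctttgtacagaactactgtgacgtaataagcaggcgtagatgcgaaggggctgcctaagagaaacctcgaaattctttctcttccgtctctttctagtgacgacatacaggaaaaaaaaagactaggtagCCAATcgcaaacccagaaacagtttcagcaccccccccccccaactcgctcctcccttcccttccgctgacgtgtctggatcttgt
Promoter entries were found for 36 of the 46 genes, 49 promoters in all, and 4 motifs, picked after the ratios had been seen, were searched in them on both strands in these windows. The CCAAT box was in 24 of the 49 promoters (49%) and in 33.8% of all 32851 promoters. The cAMP response element TGACGTCA was in 2 of the 49, against 1.55% of all promoters. The STAT motif TTCNNNGAA, of interest because LIF acts through STAT3, was in 4 of the 49 (8.16%), against 7.02% of all promoters. The E2F motif, TTTCGCGC or TTTGGCGC, which marks genes of the S phase, was in 2 of the 49, against 0.654%. A match is only a run of letters, and nothing about a factor follows from it.

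Homologous recombination held 11 compared genes, of which 2 were higher on both arrays, 6 were lower on both and 3 had opposite signs. Among all compared spots 36.7% were higher and 36.8% lower on both arrays. Rad52, which anneals single strands, had the lowest mean of all 47 genes. The Cy5 signal of Rad52 was 128 on array 1 and 177 on array 2, and its Cy3 signal was 538 and 458. Its log2 ratio was -2.07 and -1.37, a mean of -1.72 ± 0.50 (SD, n = 2 arrays) with a standard error of 0.26 and an adjusted p of 0.0607 from limma. The Cy5 signals were dim but lay above 98.2% of the blank spots of array 1 and 98.3% of those of array 2.

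The log2 ratio of Rad51d, which takes part in recombination, was -1.37 on array 1 and -0.74 on array 2 (mean -1.06 ± 0.45, standard error 0.25, limma adjusted p = 0.0883). Its signals were 157 and 304 in Cy5 and 407 and 508 in Cy3. Under normexp background correction with loess, which pulls the ratios of dim spots toward 0, the mean of Rad51d was -0.75. The Werner helicase Wrn gave -1.86 on array 1 but -0.37 on array 2 (mean -1.11 ± 1.05, standard error 0.40, limma adjusted p = 0.145). Its Cy5 signal of 51.0 and 48.5 lay above 96.8% of the blank spots of each array, and under normexp and loess its mean was -0.53. The value of Wrn therefore rests mainly on array 1.

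The other recombination genes described here had means closer to 0. The Bloom helicase Blm had -0.17 on array 1 and -0.63 on array 2. Rad51ap1, an accessory protein of recombination, was the other gene above 0 on both arrays, with 0.63 on array 1 and 0.002 on array 2. Opposite signs were seen for Rad51b (0.71 and -1.23), for the motor protein Rad54l (0.17 and -0.67) and for the nuclease Mre11a (0.007 and -0.18). The spread of Rad51b, an SD of 1.37, was the widest of the 47 genes, at a Cy5 signal of 127 and 58.8.

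The checkpoint genes were the 9-1-1 clamp members Rad9a and Rad1 and their loader. Rad17 places this ring-shaped clamp on damaged DNA, from which the kinase Atr is activated. The Cy5 signal of Rad17 was 11384 on array 1 and 9526 on array 2, and its Cy3 signal was 4192 and 3789. Its log2 ratio was 1.44 and 1.33, a mean of 1.39 ± 0.08 (SD, n = 2 arrays) with a standard error of 0.21 and an adjusted p of 0.0607 from limma. This was the highest mean of the 47 genes, a ratio of 2.61, above 97.8% of the compared spots. Brca2 and Rad17 stand in the up-expression list that the study made from these arrays, so their direction here is not independent evidence. For Brca2 the study also reported quantitative RT-PCR on morulae, where it was raised after LIF-siRNA and stayed raised when LIF protein was supplied. Rad17 was not among the genes it measured that way.

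The clamp members had opposite signs. Rad9a gave 2558 on array 1 and 2239 on array 2 in Cy5, below its Cy3 signals of 4700 and 5088. Its log2 ratio was -0.88 and -1.18, with a mean of -1.03 ± 0.22 (SD, n = 2 arrays), a standard error of 0.22 and a limma adjusted p of 0.0773. For Rad1 the log2 ratio was 0.67 on both arrays (standard error 0.21, limma adjusted p = 0.116), with an SD of 0.006, the narrowest spread of the 47. Rad1 exceeded Rad9a by 1.54 on array 1 and 1.86 on array 2, and Rad17 exceeded Rad9a by 2.32 and 2.51. These pairs were picked after their values had been seen.

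**Figure D3:**
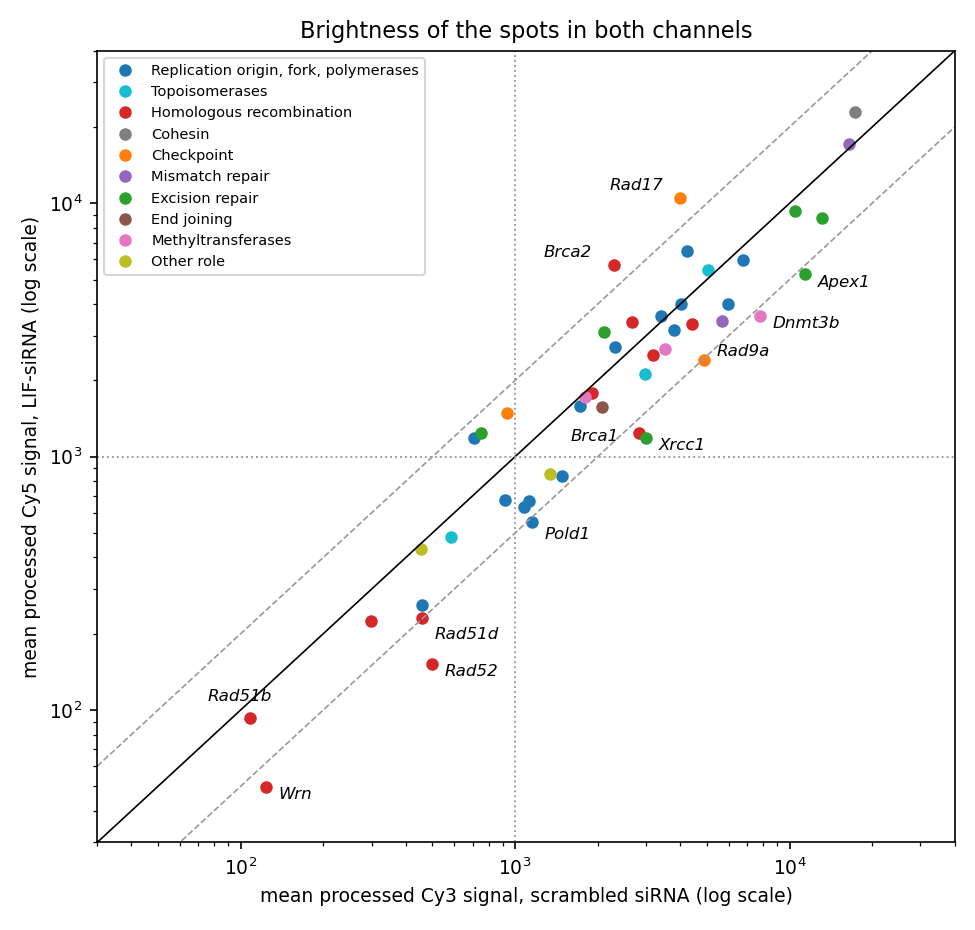
Mean processed Cy5 signal after LIF-siRNA (y axis, log scale) against mean processed Cy3 signal after scrambled siRNA (x axis, log scale) for the 47 genes, colored by role and averaged over 2 arrays. The solid line marks equal signals, dashed lines a 2-fold ratio of mean signals and dotted lines a signal of 1000. Brca2 and Rad17 lie above the upper dashed line, while Rad52, Rad51d and Wrn lie under the signal threshold in both channels.

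Excision repair held 6 compared genes. Of these 4 were lower and 2 higher on both arrays, beside 36.8% and 36.7% of all compared spots. Xrcc1, the scaffold that gathers the enzymes of base excision and single-strand break repair, had the lowest mean of the 47 after Rad52. Its Cy5 signal was 1479 on array 1 and 899 on array 2, and its Cy3 signal was 2514 and 3479. The log2 ratio of Xrcc1 was -0.77 on array 1 and -1.95 on array 2, so the arrays had the same sign but differed in size (mean -1.36 ± 0.84, standard error 0.34, limma adjusted p = 0.0928). Array 1 alone was within the 2-fold limit.

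Apex1 cuts the DNA backbone at sites that have lost a base. Its Cy5 signal was 5230 on array 1 and 5245 on array 2, against Cy3 signals of 13487 and 9310. On the log2 scale the ratio of Apex1 was -1.37 and -0.83, with a mean of -1.10 ± 0.38 (SD, n = 2 arrays), a standard error of 0.24 and a limma adjusted p of 0.0805. Ung, which removes uracil from DNA just before Apex1 acts, had a mean of -0.17. In nucleotide excision repair, the log2 ratio of the damage sensor Xpc was 0.37 on array 1 and 1.06 on array 2 (mean 0.71 ± 0.49, standard error 0.26, limma adjusted p = 0.150), and Ercc5, which cuts beside the lesion, had 0.51 and 0.61. Rad23b, the partner of Xpc, had -0.84 and -0.36, and lay below Xpc by 1.21 on array 1 and 1.42 on array 2.

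Replication origins, forks and polymerases made up the largest group, with 15 compared genes. Of these 9 were lower and 3 higher on both arrays, beside 36.8% and 36.7% of all compared spots. The median of the group was -0.22 on array 1 and -0.38 on array 2. Without the polymerases mu and iota, which act in repair and damage bypass, the counts were 8 and 2 of 13. The subunits of polymerase delta, which copies the lagging strand, were both below 0. The Cy5 signal of its catalytic subunit Pold1 was 633 on array 1 and 467 on array 2, and its Cy3 signal was 1030 and 1271. The log2 ratio of Pold1 was -0.70 and -1.45 (mean -1.07 ± 0.53, standard error 0.27, limma adjusted p = 0.0923), and its mean was -0.93 under normexp and loess, inside the 2-fold limit. Pold2 had -0.20 on array 1 and -1.31 on array 2.

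Polymerase alpha, which lays the first stretch of each new strand, showed both directions. For its catalytic subunit Pola1 the log2 ratio was 0.77 on the first array and 0.43 on the other (mean 0.60 ± 0.24, standard error 0.22, limma adjusted p = 0.150), and its accessory subunit Pola2 had -0.46 and -1.13. Pola1 exceeded Pola2 by 1.23 on array 1 and by 1.57 on array 2. The primase subunit Prim1, of the same complex, gave 0.27 and -0.25. The leading-strand polymerase subunits Pole and Pole2 had means of -0.44 and -0.13.

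The enzymes that finish the lagging strand were below 0 on both arrays. The ligase Lig1 gave -0.24 on array 1 and -1.20 on array 2, and the flap endonuclease Fen1 had -0.37 and -0.74. Rpa2, which covers single strands, had opposite signs (0.03 and -0.38). Of the origin recognition subunits, Orc5 had -0.30 and -0.22, Orc2 had 0.04 and 0.42, and Orc4 had opposite signs (-0.22 and 0.30). The bypass polymerase Poli was the highest of the group, with 1.11 on array 1 and 0.41 on array 2 (mean 0.76 ± 0.49, standard error 0.26, limma adjusted p = 0.136). The end-joining polymerase Polm had a mean of -0.81.

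In mismatch repair, Msh6, which finds mispaired bases, lay near 0, with 0.10 on array 1 and 0.02 on array 2, and its mean was -0.07 without lowess normalization. Of the topoisomerases, which relieve twists in the DNA, Top2a had -0.43 and -0.53, Top3a -0.003 and -0.59 and Top1 0.02 and 0.22. The end-joining protein Xrcc5, a subunit of Ku, had -0.12 and -0.74, and Rad21, the cohesin subunit that holds sister chromatids together, had 0.31 and 0.50.

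All 3 DNA methyltransferase spots were below 0 on both arrays, where 36.8% of all compared spots were. Dnmt3b, which sets new methyl marks, gave 3985 on array 1 and 3211 on array 2 in Cy5, below its Cy3 signals of 6586 and 9013. Its log2 ratio was -0.73 and -1.49, with a mean of -1.11 ± 0.54 (SD, n = 2 arrays), a standard error of 0.27 and a limma adjusted p of 0.0907. Dnmt1, which copies the marks after replication, had -0.33 and -0.48. The enzyme named DNA methyltransferase 2 (Trdmt1), which acts mainly on transfer RNA, had -0.06 and -0.07. Of the 2 genes of other roles, Rfng had a mean of -0.62 and Rrad of -0.06.

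**Figure D4:**
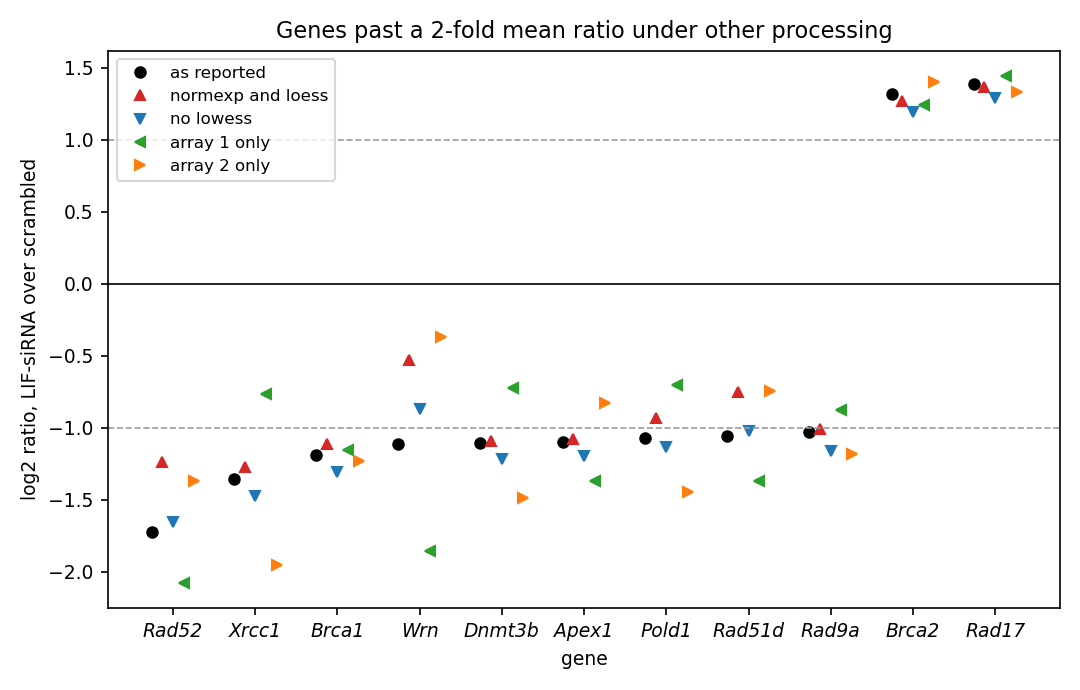
Log2 ratio of LIF-siRNA over scrambled siRNA (y axis) for the 11 genes with a mean ratio over 2 or under 0.5 (x axis), as reported, under normexp and loess, without lowess, and on each array alone. Dashed lines mark a 2-fold ratio. Brca2 and Rad17 stay above 1 at every point shown and Brca1 below -1, while Wrn has -1.86 on array 1 and -0.37 on array 2.

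Other genes of replication and repair were taken from another list of names, such as the MCM helicase, nucleotide synthesis, checkpoint kinases, cohesin and base excision. Of its 48 spots on the array, 45 were compared, of which 19 were lower and 12 higher on both arrays. On both arrays 36.8% of all compared spots were lower and 36.7% higher. The median log2 ratio of the list was -0.12 for the mean of the arrays, but -0.21 on array 1 and -0.22 on array 2, where the genes above had -0.22 and -0.37. A few names of this list have another role, such as reversion-inducing-cysteine-rich protein and ADP-ribosyltransferase 5. Past the criteria were 1 spot on the higher side and 2 on the lower, beside 2.16% and 2.19% of all gene spots. Poly (ADP-ribose) glycohydrolase, which removes the ADP-ribose chains made at DNA breaks, had 1.27 on array 1 and 1.38 on array 2. The MCM5 spot had -0.98 and -1.65, and thymidylate kinase, which helps to make the precursor of thymine in DNA, had -1.19 and -0.95. In limma 0 of the 45 passed the adjusted threshold, and 18 had an unadjusted p under 0.05, 6 higher and 12 lower, beside 30.7% of all compared spots.

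The 6 spots named mini chromosome maintenance deficient are the subunits of the helicase that opens the duplex at origins. All 6 were below 0 on both arrays, where 36.8% of all compared spots were, and they are part of the 19 lower spots above. The means of these 6 spots ranged from -1.31 to -0.79, and limma's adjusted p from 0.0720 to 0.108. The 6 spots were singled out after their values had been seen. Thymidine kinase 1 and thymidylate synthase, which supply thymidine nucleotides, had means of -0.82 and -0.81, and the checkpoint kinase Chk1 had -0.57. Geminin, the inhibitor of origin licensing, lay near 0 on each array (0.02 and -0.05). The helicase cofactor Cdc45 (0.26 and -0.32) and p53 (-0.28 and 0.32) had opposite signs on the arrays. On the higher side, the MCM3-associated protein had a mean of 0.99 and the ubiquitin-conjugating enzyme E2B, the mouse Rad6 homolog, of 0.88.

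**Figure D5:**
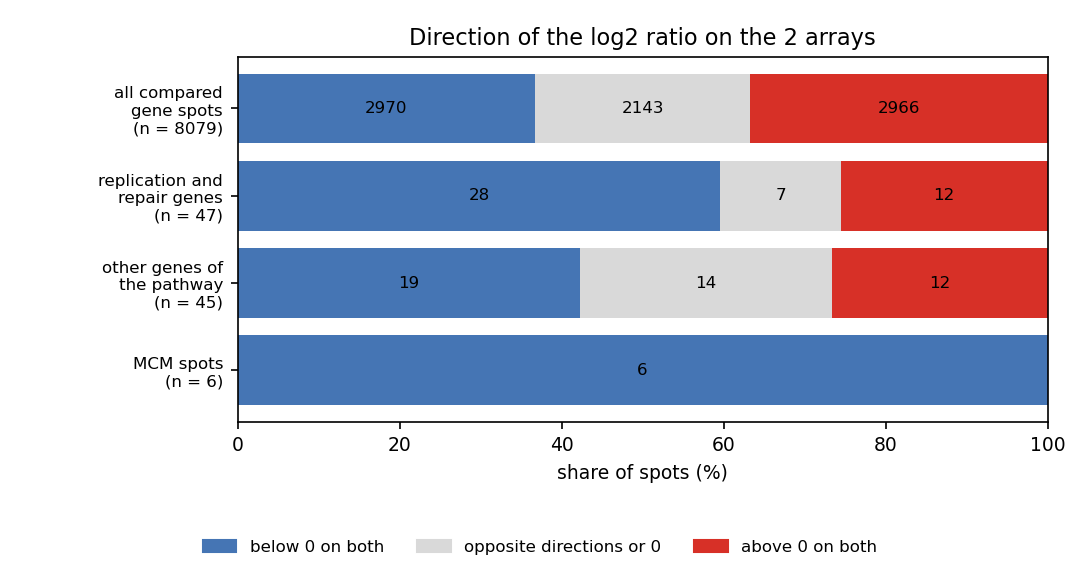
Share of spots (x axis, percent) with a log2 ratio below 0 on both arrays (blue), above 0 on both (red) or of opposite direction (gray), with the number of spots in each part. Of the 47 replication and repair genes 28 were below 0 on both arrays, of the 45 other genes of the pathway 19, and of the 6 MCM spots 6. The MCM spots are part of these 45.

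Markers of the embryo and of other cells were read beside these results. All 4 embryo markers found on the array were well above background in every channel, Oct4, Sox2, cadherin 1 and keratin 8. Their summed signal was 18012 and 19986 in Cy5 and 25385 and 30407 in Cy3. Oct4, which marks pluripotent cells, had a mean log2 ratio of -0.11, Sox2 of -2.35, keratin 8, a marker of the outer cells, of -1.95, and cadherin 1 of 0.47. The 2 spots of cumulus cell genes summed to 471 and 664 in Cy5 and to 375 and 269 in Cy3, and the 2 hemoglobin spots to 155 and 185 in Cy5 and 127 and 149 in Cy3. These levels are dim but not 0. The cumulus sum was higher in Cy5 on both arrays, and its part in the results was not tested. Of its spots, pentaxin related gene had a log2 ratio of 0.67 and 1.68, and tumor necrosis factor induced protein 6 had -0.63 and 0.23.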

How the data were processed

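Agilent Feature Extraction was run on each array by the authors. In the deposited files, intensity columns give for each spot and dye the mean signal, its local background, the signal less that background, and a processed signal corrected for the dye as well. The log10 of processed Cy5 over Cy3, deposited as the log ratio, was made after rank-consistent lowess and was converted to log2. The deposited log2 table of the series follows the average brightness of both channels (r of 0.999999 on each array, medians of 8.83 and 8.93) and not the ratio (r of 0.0121 and 0.0114). It therefore could not serve as an alternative.

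Of 9651 spots on each array, controls and 23 outlier-marked gene spots were dropped. A spot was compared if at least 1 channel stood well above background on each array. An intercept-only model was fitted to the log2 ratio of all 8079 compared spots with lmFit and eBayes of limma 3.58.1 in R 4.3.3, two-sided, and p-values were adjusted over all of them by Benjamini-Hochberg, with 0.05 as the threshold. For calling genes on the arrays the study's methods give only thresholds, while they name a t-test for quantitative gene expression data. The criteria of a ratio of 2 or 0.5 and a signal of 1000 were applied to the geometric mean ratio and the mean processed signal of the arrays. Each log ratio already pairs both RNAs of an array. Tables and plots were made in Python 3.11.15 with pandas 2.3.3, numpy 2.4.6 and matplotlib 3.10.9.

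The test was run on simulated data for this comparison. These had independent normal errors, with variances drawn from the prior that limma fitted to these arrays, and no dye effect. The simulation therefore shows only how the test behaves under its own assumptions, not how many calls on these arrays are right. With 200 of 8079 spots changed, 0 were called when they changed 2-fold, 183 when 4-fold and 195 when 8-fold, with 21 unchanged spots also called at 4-fold and 7 at 8-fold.

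The members and the gene lists were chosen with earlier results of these data known. Symbols and roles were assigned by hand from the full names in the files. Of the compared genes, 2 are counted but not reported here by name. The others could be named within their role, and the value on each array, SD, standard error and adjusted p were given for genes past a mean ratio of 2 or 0.5 and for the 5 highest and 5 lowest means. Values, pairs and MCM spots named beyond this were chosen with their values in view. As alternatives served normexp (offset 50) with loess, median centring, each array alone, outliers kept, other filters on dim spots, other rules for the criteria, an intensity trend and the methods' t-test.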

Additional observations from a re-analysis of the deposited data

How the results depend on the processing

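The number of genes that passed the adjusted threshold in limma depended most on the processing, and the cause was not tested. It was 0 as reported, with outliers kept and with no filter on dim spots, where 0% of all spots passed. Normexp and loess gave 2 (1.96% of all spots), both channels well above background 3 (3.09%) and median centring 4 (4.27%). Without lowess there were 10 (16.5% of all spots) and with an intensity trend 13 (14%). By the methods' t-test the number was 4 before adjustment, beside 10.7% of all compared spots, and 0 after it. Over 8 limma settings the adjusted p ranged from 0.00663 to 0.157 for Brca2, from 0.00475 to 0.157 for Rad17, from 0.00313 to 0.157 for Rad52 and from 0.00878 to 0.157 for Brca1. With 1 array left out limma has no residual degree of freedom and gives no count.

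The count of 6 genes past the criteria on the lower side was 1 with the criteria met on both arrays (1.45% of all gene spots), 2 with the ratio past its threshold on both arrays and no signal threshold, and 2 to 8 with a replicate left out (2 without replicate 2 and 8 without replicate 1). On the higher side it was 3 with either replicate left out, beside 2.98% of all gene spots without replicate 1 and 2.02% without replicate 2. On the lower side these shares were 3.05% and 2.47%. The median of the 47 genes ranged from -0.39 to -0.28 over the settings with both arrays, and the number of genes below 0 on both from 27 to 29. The median of the other replication and repair genes (-0.12) was -0.094 under normexp and loess, -0.225 without lowess, -0.132 with both channels well above background, and -0.22 to -0.21 with a replicate left out.

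The sign turned for Prim1 under normexp and loess (-0.0048) and without lowess (-0.11), and without lowess for Orc4 (-0.083) and Msh6 (-0.074). With a replicate left out, values ran from -1.23 to 0.71 for Rad51b, -0.67 to 0.17 for Rad54l, -0.38 to 0.026 for Rpa2, -0.18 to 0.0074 for Mre11a, -0.25 to 0.12 for Rrad, -0.25 to 0.27 for Prim1 and -0.22 to 0.30 for Orc4.

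The settings without lowess, with the ratio past on both arrays and no signal threshold, and without the 2 genes of other roles were added after seeing the data. No paired analysis was possible because there is 1 group of arrays and each log ratio is already the paired difference. The dimmest channel of the gene spots was Cy3 on array 2.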
